A study of Homo sapiens with 9 samples.

Results

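The guides described here target the enzymes that start the ubiquitin cascade and 3 related conjugation cascades. They were all guides whose target gene was given as UBA1, UBA6, UBA7, MOCS3 or ATG7, and the E1 enzymes of other pathways, such as NEDD8 and SUMO, were left out. The table held 50 such guides, 10 per gene, among 11170 guides against 1117 genes. All 5 symbols matched a current entry in a RefSeq gene table.

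The study grew a pool of U251 cells, an established human glioma line, in which each cell stably carried a single-guide RNA. DNA from 9 libraries was counted, with 3 libraries each at 0, 200 and 1500 µM temozolomide, a DNA-alkylating drug, in the unit of the sample titles. The protocol text writes these figures with nM instead. The unit is therefore unsettled, and the doses serve here as names of groups. Exposure to the drug lasted 72 hours per the protocol. No time is given for the libraries at 0 µM, so equal time in culture cannot be assumed. All groups shared the cell line, the serum-containing DMEM medium and the guide pool. The labels give neither the nuclease and vector nor the time since infection, and do not say whether the line was a single clone or whether replicates were separate cultures. All p-values thus reflect how these libraries varied, which can be technical variation alone. Neither a plasmid pool nor an earlier time point was analysed here, so a guide lost with its cells and a guide scarce from the start cannot be told apart.

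An E1 enzyme uses ATP to activate ubiquitin or a ubiquitin-like protein, holds it as a thioester and hands it to an E2 enzyme, which works with a ligase to attach it to a target. UBA1 is the main E1 of ubiquitin and feeds most E2 enzymes, and most dividing cells depend on it. UBA6 also activates ubiquitin, as well as the ubiquitin-like protein FAT10, and passes them to the E2 enzyme UBE2Z. UBA7 activates ISG15, an interferon-induced modifier. MOCS3 activates MOCS2A, for the molybdenum cofactor, and URM1, for thiolation of transfer RNA. ATG7 activates ATG12 and the ATG8 family, which build the autophagosome.

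Library totals lay between 1852340 and 2790563 counts, and the 50 guides together took 0.252% to 0.501% of a library. A count of 0 allows up to 3 counts, or 1.08 to 1.62 CPM, the count over the library total on a common scale. Replicate number, not dose, grouped the libraries. Those sharing a number had correlations of 0.793 to 0.889 in log2(CPM + 1) over the tested guides. Libraries of the same dose with different numbers correlated at 0.394 to 0.492. Because of this, each result below is set out by replicate number. At 1500 µM the guide UBE2A.7 alone took 6.07%, 18.6% and 4.97% of counts in replicates 1, 2 and 3, which lowers the CPM of all other guides there. Differences within a replicate number were therefore also computed with TMM factors, which are little affected by a single large guide. These factors were computed on the tested guides of all libraries, and the fits of gene sums used factors of the sums instead. The differences and the fitted fold changes of sums are thus not on the same scale. Intervals and floors cover counting error only.

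Guides against UBA1 were scarce at every dose. Their summed level was 22.7, 39.8 and 179 CPM in replicates 1, 2 and 3 at 0 µM, 53.2, 53.0 and 102 CPM at 200 µM, and 62.7, 34.6 and 171 CPM at 1500 µM. Replicate 3 was the highest library at each dose, and the 3 doses overlapped. Mean levels in CPM were 80.4 ± 85.6 without drug, 69.2 ± 27.9 with 200 µM and 89.3 ± 71.7 with 1500 µM (SD, n = 3 each). By mean level at 0 µM UBA1 ranked 19 of 1117 genes from the bottom, where the median gene had 873 CPM. Its rank in single libraries ran from 8.5 to 62. The scarcest of these sums, 42 counts in replicate 1 at 0 µM, was 0.00227% of that library (exact Clopper-Pearson 95% interval 0.00163% to 0.00306%).

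The scarcity of UBA1 guides was spread over the gene's guides. Of 90 counts (10 guides in 9 libraries), 43 were 0 and 58 were under 10, and 9 of the 10 guides were at 0 in at least 1 library. Of UBA1 counts 47.8% were 0, against 12.4% over all guides. As many values at 0 as UBA1 or more were found for 43 genes, UBA1 included. UBA1.6 had a single count in all 9 libraries, and UBA1.2 and UBA1.3 were at 0 in 7 libraries each. UBA1.7 and UBA1.10 were at 0 in 6 libraries each, and UBA1.10 had 58 and 74 counts in replicate 3 at 0 and 1500 µM but 0 there at 200 µM. UBA1.7 had 7 counts in replicate 1 at 200 µM and 18 and 31 counts in replicates 2 and 3 at 1500 µM. It was at 0 in all libraries at 0 µM. Both guides fell short of the count filter and were not tested. The largest UBA1 count anywhere was 193.

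That largest count belonged to UBA1.9, the gene's most abundant guide, which was nearly confined to 1 replicate number. It had 3, 0 and 191 counts in replicates 1, 2 and 3 at 0 µM, 0, 0 and 164 counts at 200 µM, and 0, 0 and 193 counts at 1500 µM. All libraries of replicate 3 held it and 5 of the other 6 libraries were at 0. It made up 57.7% of the UBA1 counts of replicate 3 at 0 µM (exact 95% interval 52.2% to 63.1%). Without UBA1.9 the UBA1 sums were 39, 92 and 140 counts at 0 µM, 110, 105 and 86 counts at 200 µM, and 175, 88 and 167 counts at 1500 µM. UBA1.4 was the single UBA1 guide present in all 9 libraries, with 5 to 72 counts.

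The E1 genes were not alike in level. By mean level at 0 µM the order from low to high was UBA1, MOCS3, UBA7, UBA6 and ATG7, and the means had the same order at 200 and at 1500 µM. MOCS3 lay above UBA1, and UBA7 above MOCS3, with no overlap between libraries at any dose. UBA6 overlapped UBA7, and ATG7 overlapped UBA6, at all 3 doses, so the order of these 3 is one of means only. ATG7 was above UBA6 in 1 of 3 libraries at 0 µM, 2 at 200 µM and 1 at 1500 µM. UBA6 was above UBA7 in 2 of 3 libraries at 0 µM, 2 at 200 µM and 1 at 1500 µM. Each gene has 10 guides, so the sums are over equal numbers of guides, but the starting share of each guide was not analysed here. No test was made between genes.

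MOCS3 guides summed to 433, 378 and 512 CPM in replicates 1, 2 and 3 at 0 µM, to 605, 507 and 567 CPM at 200 µM, and to 646, 423 and 598 CPM at 1500 µM. Within each replicate number, both treated libraries were above the untreated one. Mean levels in CPM were 441 ± 67.4 without drug, 559.6 ± 49.1 with 200 µM and 556 ± 117 with 1500 µM (SD, n = 3 each), and the rank was 181 of 1117 at 0 µM. Its guides were uneven, from 3.87 CPM for MOCS3.8 to 143 CPM for MOCS3.6 in the mean of the 9 libraries. MOCS3.6 had 302, 90 and 130 counts at 0 µM, 622, 94 and 313 counts at 200 µM, and 1031, 98 and 279 counts at 1500 µM. Replicate 1 held most of this guide, where at 1500 µM it made up 57.2% of MOCS3 counts (exact 95% interval 54.8% to 59.4%). When the highest guide of each gene was left out of its sum, MOCS3 had 501, 782 and 818 counts at 0 µM, 629, 910 and 1083 counts at 200 µM, and 773, 979 and 984 counts at 1500 µM.

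UBA7 guides were near the middle of the pool, and single guides averaged 27.9 to 173 CPM over the 9 libraries. They summed to 623, 826 and 1115 CPM at 0 µM, to 816, 950.3 and 1190.1 CPM at 200 µM, and to 971, 693 and 1179 CPM at 1500 µM. The rank was 535 of 1117 at 0 µM, the doses overlapped, and mean levels in CPM were 855 ± 247 without drug, 986 ± 189 with 200 µM and 948 ± 244 with 1500 µM (SD, n = 3 each). Its most abundant guide on average, UBA7.6, had 100, 437 and 311 counts at 0 µM, 183, 583 and 477 counts at 200 µM, and 477, 351 and 550 counts at 1500 µM. UBA7.9 was the leading UBA7 guide in all 3 libraries of replicate 3, with 896, 986 and 852 counts at 0, 200 and 1500 µM, against 12 to 196 counts in the other 6 libraries. UBA7.1 showed the same kind of split for replicate 2, with 403, 338 and 238 counts at the 3 doses and 0 to 53 counts elsewhere.

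UBA6 guides summed to 740.4, 1437 and 557 CPM at 0 µM, to 972, 1491 and 822 CPM at 200 µM, and to 949.6, 1404 and 696 CPM at 1500 µM. Replicate 2 was the highest at every dose, unlike for the other 4 genes, and the doses overlapped. The rank was 608 of 1117 at 0 µM, but 351 without replicate 2 and 793 without replicate 3, and mean levels in CPM were 911 ± 464 without drug, 1095 ± 351 with 200 µM and 1017 ± 359 with 1500 µM (SD, n = 3 each). Single guides averaged 8.82 to 221 CPM over the 9 libraries. The high level of replicate 2 lay largely in UBA6.1, with 1603, 1316 and 1058 counts there at 0, 200 and 1500 µM. In the other 6 libraries UBA6.1 had 50 to 142 counts. It made up 48.3% of the UBA6 counts of replicate 2 at 0 µM (exact 95% interval 46.6% to 50.03%).

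ATG7 guides were the most abundant of the 5 genes by mean sum, with single guides at 30.2 to 395 CPM on average. They summed to 699, 971 and 2198 CPM at 0 µM, to 1172, 1098 and 2328 CPM at 200 µM, and to 851, 825 and 1870.4 CPM at 1500 µM. Replicate 3 was well above the other replicates at each dose, and the gene had rank 951 of 1117 at 0 µM, or 557 without replicate 3. Mean levels in CPM were 1289 ± 799 without drug, 1533 ± 689.9 with 200 µM and 1182 ± 596 with 1500 µM (SD, n = 3 each). ATG7.1, its most abundant guide, had 445, 807 and 986 counts at 0 µM, 703, 785 and 1692 counts at 200 µM, and 564, 612 and 1203 counts at 1500 µM. This guide was high in all 9 libraries. ATG7.4 instead had 699, 964 and 581 counts in replicate 3 at the 3 doses and 0 to 24 counts in the other libraries.

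Replicate number thus separated many of these guides more than dose did. For the 45 tested E1 guides, the median share of the variance of log2(CPM + 1) that lay between replicate numbers was 61.7%, and the share between doses was 8.83%. Over all 10337 tested guides the medians were 73.0% and 7.03%. Guides of 1 gene moved together weakly or not at all. The median correlation between pairs of guides of a gene over the 9 libraries was 0.24 for ATG7, 0.15 for UBA6, 0.05 for UBA7, -0.001 for MOCS3 and -0.04 for UBA1, against a median of -0.005 over all genes. These values describe 9 libraries that share 3 replicate numbers, and they carry no test.

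The comparison of 1500 with 0 µM asked which targets changed the share of cells remaining at the highest dose. No E1 gene and no E1 guide passed. The libraries of the 2 doses overlapped for all 5 E1 genes in summed CPM, and they did not overlap for 2.69% of all genes. Of the genes tested, 0% passed in either direction in edgeR's quasi-likelihood test on gene sums without a block, and 0.269% had an unadjusted p under 0.05, none of them an E1 gene. In the same fit on guides, 0.203% of all tested guides and 0 of 45 E1 guides had an unadjusted p under 0.05. The tested guides are those with at least 10 counts in at least 3 libraries, and 5 UBA1 guides fell short of this. DESeq2 without a block called 0 guides and 1 gene, which was no E1 gene.

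MOCS3 had a summed log2 fold change of 0.42 ± 0.31 at 1500 against 0 µM (SE, edgeR adjusted p = 0.9996), and 0.17 with the highest guide of each gene left out of its sum. The differences within replicates 1, 2 and 3 were 0.40, 0.30 and 0.18 with TMM factors of the guides. With the replicate number as a block MOCS3 was the one E1 gene with an unadjusted p under 0.05 (log2 fold change 0.42 ± 0.18, adjusted p = 0.739 in edgeR), beside 6.62% of all genes. UBA6 had 0.29 ± 0.46 without the block and 0.31 ± 0.16 with it (SE, edgeR adjusted p = 0.9996 and 0.759). It was higher in all 3 replicates with TMM scaling (0.19, 0.10 and 0.28), but in 2 of 3 by plain CPM. Of all genes 6.36% were higher in all 3 replicates with TMM scaling, and 6% by plain CPM.

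The sums of UBA7, UBA1 and ATG7 did not pass at 1500 against 0 µM either. The log2 fold change was 0.24 ± 0.31 for UBA7, 0.23 ± 0.89 for UBA1 and -0.03 ± 0.48 for ATG7 (SE, edgeR adjusted p = 0.9996 each). These SEs, from the fit without the block, also hold the spread between replicate numbers. With the replicate block UBA7 had 0.25 ± 0.17, UBA1 0.46 ± 0.50 and ATG7 0.036 ± 0.15 (SE). Their adjusted p in that edgeR fit was 0.810, 0.896 and 0.981. For UBA1 the difference with TMM scaling was 1.26 in replicate 1, -0.07 in replicate 2 and -0.11 in replicate 3. In replicate 1 the guide UBA1.5 had 106 counts at 1500 µM and 2 counts at 0 µM.

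Over the 45 tested E1 guides at 1500 against 0 µM, 21 were higher and 24 lower, and the median log2 fold change was -0.06, against -0.08 for all tested guides. Of all tested guides 43.9% were higher. The lowest p among higher E1 guides was that of UBA7.4, with 276, 100 and 91 counts in replicates 1, 2 and 3 at 1500 µM and 81, 67 and 25 counts at 0 µM. Each treated library was above its untreated partner. Its log2 fold change was 0.96 ± 0.84 (SE, adjusted p = 1.00 in edgeR). Among lower guides it was that of UBA6.9, with 146, 153 and 67 counts at 1500 µM and 166, 201 and 80 counts at 0 µM (log2 fold change -0.65 ± 0.73, edgeR adjusted p = 1.00). Each treated library of UBA6.9 was below its untreated partner in CPM. Both guides were picked by their p, which favours the same direction in all replicates. The share of all guides with such a pattern is not given here. With the replicate block the log2 fold changes were 1.04 ± 0.54 for UBA7.4 and -0.63 ± 0.43 for UBA6.9 (SE, edgeR adjusted p = 0.999 each), so neither guide passed in either fit.

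At 200 against 0 µM no E1 gene and no E1 guide passed in edgeR, where again 0% of all genes and of all guides passed in either direction. No gene of the 1117 had an unadjusted p under 0.05 in that fit of sums, and DESeq2 without a block called 0 guides and 0 genes. The libraries at 0 µM are the same as in the comparison above, so the values of the 2 doses are not independent. The summed log2 fold change was 0.29 ± 0.30 for MOCS3, 0.22 ± 0.50 for ATG7, 0.20 ± 0.43 for UBA6, 0.16 ± 0.33 for UBA7 and -0.23 ± 0.84 for UBA1 (SE, edgeR adjusted p = 0.998 each). MOCS3 was higher by 0.17, 0.31 and 0.08 in replicates 1, 2 and 3 with TMM scaling. ATG7 and UBA7 were also higher in all 3 replicates, by as little as 0.01 for ATG7 and 0.02 for UBA7 in replicate 3. Of all genes 6.18% were higher in all 3 replicates with TMM scaling, and 19.9% by plain CPM, where UBA6 was too. With TMM scaling UBA6 was lower in replicate 2, by -0.06. With the replicate block the summed log2 fold change was 0.29 ± 0.16 for MOCS3, 0.28 ± 0.15 for ATG7 and 0.28 ± 0.15 for UBA6. It was 0.17 ± 0.13 for UBA7 and 0.18 ± 0.49 for UBA1 (SE). The edgeR adjusted p was 0.943 for UBA1 and 0.811 for each other E1 gene. In that fit 5.37% of all genes and none of the 5 E1 genes had an unadjusted p under 0.05. All 5 E1 genes overlapped between the 2 doses in summed CPM, and 2.15% of all genes did not.

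Of the 45 tested E1 guides 26 were higher and 19 lower at 200 against 0 µM. Their median log2 fold change was 0.12, against -0.09 for all tested guides, of which 42.5% were higher. Among higher E1 guides UBA6.8 had the lowest p, with 74, 394 and 414 counts at 200 µM and 83, 163 and 71 counts at 0 µM. Replicates 2 and 3 were higher at 200 µM and replicate 1 was not. The log2 fold change was 1.184 ± 0.83 (SE, adjusted p = 1.00 in edgeR). With the replicate block in edgeR, ATG7.5 was the E1 guide with an unadjusted p under 0.05 (log2 fold change 1.04 ± 0.36, adjusted p = 1.00), beside 2.23% of all tested guides.

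Without the block in edgeR, MOCS3.2 was the one E1 guide with an unadjusted p under 0.05 at 200 against 0 µM, beside 0.135% of all tested guides. With the replicate block its unadjusted p was 0.13 in edgeR and 0.052 in DESeq2. MOCS3.2 had 0 counts in all 3 libraries at 200 µM and 14, 4 and 22 counts in replicates 1, 2 and 3 at 0 µM. Against a floor of 3 counts over the group it was at least 14.4-fold lower at 200 µM (edgeR adjusted p = 1.00). At 1500 µM the guide had 47, 38 and 23 counts. In CPM that is 16.8, 14.9 and 10.9, against 7.56, 1.73 and 11.9 at 0 µM, so replicates 1 and 2 were higher at 1500 µM and replicate 3 was not. MOCS3.9, another scarce guide, had 40, 14 and 36 counts at 0 µM, 0, 0 and 19 counts at 200 µM, and 28, 13 and 31 counts at 1500 µM. In each replicate number both guides had their lowest count at 200 µM. The MOCS3 sum at 200 µM was instead above that at 0 µM in all 3 replicates.

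The comparison of 1500 with 200 µM asked whether the doses differed from each other, on libraries already used above. No E1 guide passed in edgeR, and 0% of guides passed in all, nor did DESeq2 without a block call any. In edgeR's sums 0.0895% of genes had an unadjusted p under 0.05, none of them an E1 gene. MOCS3.2 had the p of rank 3 from the lowest among 10337 guides, with an adjusted p of 0.9998 in edgeR. It was at least 31.5-fold higher at 1500 µM on the same floor. Without the block in edgeR it was the one E1 guide with an unadjusted p under 0.05, beside 0.203% of all tested guides. With the replicate block its unadjusted p was 0.057 in edgeR. DESeq2 with the block gave an unadjusted p of 0.00055 and no adjusted p, so its standing depends on the fit. Among lower E1 guides ATG7.5 had the lowest p, with 224, 94 and 204 counts at 1500 µM and 300, 105 and 566 counts at 200 µM (log2 fold change -0.88 ± 0.71, adjusted p = 0.9998 in edgeR). All 3 replicates were lower, for a guide that was again picked by its p. Of the 45 guides 24 were higher and 21 lower, with a median log2 fold change of 0.07, against 0.01 for all tested guides, of which 50.8% were higher.

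ATG7 gave the one call among E1 genes, and it rested on the analysis chosen. At 1500 against 200 µM its summed log2 fold change was -0.26 ± 0.41 (SE, edgeR adjusted p = 0.999), so it did not pass. It was lower in all 3 replicates, by -0.33, -0.17 and -0.29 with TMM scaling, as were 15.8% of all genes. With the replicate block it was -0.25 ± 0.098 in edgeR (adjusted p = 0.661), with an unadjusted p under 0.05, as for 6.62% of all genes. With the replicate block in DESeq2 ATG7 passed as lower (-0.27 ± 0.083, adjusted p = 0.0459), beside 1.91% of the 943 genes that kept an adjusted p as lower and 0.636% as higher. The call ended when p-values were adjusted over all 1117 genes (0.0544). It also ended without replicate 3 (-0.24, adjusted p = 0.523) and with the highest guide of each gene left out of its sum (-0.19, adjusted p = 0.447). Without replicate 1 (-0.21) or without replicate 2 (-0.31) DESeq2 called 0 of 1117 genes, so those fits say nothing of ATG7 in particular. Of the 10 ATG7 guides 7 were lower and 3 higher. At 1500 against 0 µM ATG7 was lower in 2 of 3 replicates.

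The sums of the other E1 genes did not pass between the treated doses. The log2 fold change at 1500 against 200 µM was 0.45 ± 0.69 for UBA1, 0.12 ± 0.28 for MOCS3, 0.07 ± 0.39 for UBA6 and 0.07 ± 0.28 for UBA7 (SE, edgeR adjusted p = 0.999 each). With the replicate block UBA1 had 0.28 ± 0.47, MOCS3 0.12 ± 0.16, UBA6 0.03 ± 0.11 and UBA7 0.07 ± 0.12 (SE). Their adjusted p in that edgeR fit was 0.926, 0.917, 0.967 and 0.926. MOCS3 was higher in 2 of 3 replicates, with -0.02 in replicate 2. The 2 doses overlapped for all 5 E1 genes, and did not for 1.97% of all genes.

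UBA6.7 was the E1 guide with the lowest p in a blocked fit of edgeR, again at 1500 against 200 µM. It had 824, 758 and 395 counts in replicates 1, 2 and 3 at 1500 µM and 457, 366 and 112 counts at 200 µM. Each library at 1500 µM was above its partner. Its log2 fold change was 0.94 ± 0.78 without the block and 1.17 ± 0.34 with it (SE, edgeR adjusted p = 0.9998 and 0.9996). DESeq2 with the block gave 1.15 ± 0.35 (SE, adjusted p = 0.0855), which did not pass either. In that DESeq2 fit 10.2% of the 10337 tested guides had an unadjusted p under 0.05 and 43 passed. There 5411 guides got no adjusted p, so the adjustment covered only the others. At 0 µM the counts were 292, 541 and 150, and the blocked log2 fold change at 1500 against 0 µM was 0.77 ± 0.31 (edgeR adjusted p = 0.999). With the block in edgeR 1.95% of all tested guides had an unadjusted p under 0.05 at 1500 against 200 µM, and 2.61% at 1500 against 0 µM. The guide was named after its values were seen.

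Genes that act with these enzymes were read in the same fits of gene sums. In the UBA6 branch all 3 listed genes were in the table. These were UBE2Z, its E2 enzyme, BIRC6, a ligase that works with UBA6, and UBD, which encodes FAT10. None passed in any comparison in edgeR, and the summed log2 fold changes at 1500 against 0 µM ran from -0.29 to -0.04. Of 7 genes listed for the ISG15 branch, 5 were in the table, among them the E2 enzyme UBE2L6 and the ligase HERC5. None passed, and the range at 1500 against 0 µM was -0.32 to 0.31. Of 16 genes of ATG8 and ATG12 conjugation ATG3, the E2 enzyme of the ATG8 family, and ATG16L1, which guides its attachment, were in the table, with 0.08 and -0.13. None of the 7 genes listed for URM1 and the molybdenum cofactor was analysed here.

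All 30 listed E2 genes of the ubiquitin pathway, the E2 variants UBE2V1 and UBE2V2 included, were in the table. None passed in edgeR without the block. Their median summed log2 fold change at 1500 against 0 µM was -0.03, as was the median of all genes, and 11 were higher and 19 lower. With the replicate block UBE2A, a RAD6-type E2 enzyme, was higher (4.05 ± 0.56, edgeR adjusted p = 0.00518), and it was the 1 gene of 1117 to pass, 0.0895%. That sum is mostly the guide UBE2A.7. UBE2N, the E2 enzyme that builds K63-linked chains, was as scarce as UBA1 at 0 µM, with 78.4 ± 74.5 CPM and rank 16.

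The NEDD8 and SUMO E1 subunits help to place the levels at 0 µM. NAE1 and UBA3, which form the E1 of NEDD8, had 105 ± 49.9 and 188 ± 46.9 CPM. UBA2 and SAE1, which form the E1 of SUMO, had 239.6 ± 153 and 317 ± 233 CPM (SD, n = 3 each). UBA1 at rank 19 of 1117 lay below all of them by mean level and MOCS3 at 181 above, against ranks of 29, 55, 81 and 110 for NAE1, UBA3, UBA2 and SAE1. Single libraries overlapped. In replicate 3 UBA1 had 179 CPM, against 162 for NAE1 and 144 for UBA3, and MOCS3 had 512 CPM, against 580.3 for SAE1. UBA7, UBA6 and ATG7 ranked from 535 to 951. Of 90 counts each, 43 were 0 in UBA1 and 2 to 7 in the other 4 genes, against 19 to 30 in these subunits.

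Profiles of summed log2(CPM + 1) over the 9 libraries were compared between genes as a description. Most like UBA1 were SKP1, CNOT4 and APC2, with Pearson correlations of 0.98, 0.98 and 0.96. For UBA6 they were ANAPC13, USP27X and KAT6B (0.99, 0.97 and 0.97), and for UBA7 GID4, MARCH9 and UBE2D3 (0.94, 0.94 and 0.93). For MOCS3 they were RBBP5, WWP1 and UBE2T (0.89 each), and for ATG7 MARCH8, NDFIP1 and GSK3B (0.99, 0.98 and 0.98). UBA1 correlated at 0.92 with UBA7 and at 0.90 with ATG7, and at -0.60 with UBA6. UBA1, UBA7 and ATG7 were highest in replicate 3 at each dose and UBA6 in replicate 2, while MOCS3 had no fixed highest replicate. The 9 points share 3 replicate numbers, and the part of these in the correlations was not tested.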

How the data were processed

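Raw counts for each sgRNA were deposited in 1 table, and all its 9 sample columns were used unchanged. Per the submitters' processing notes, cutadapt 1.18 and MAGeCK 0.5.8 were used and hg19 was the build; the sources used here do not give allowed mismatches or guide filters. The table names guides and prints no guide sequence. CPM was the count over the library total. The 10337 guides that reached 10 counts in 3 or more of the 9 libraries, and counts summed per gene (1117 genes), were fitted with edgeR 4.0.16 (quasi-likelihood test, TMM factors, robust) on the 6 libraries of a pair of doses, in R 4.3.3. P-values were adjusted by Benjamini-Hochberg over all features, with a threshold of 0.05. The SE was derived from the fold change and the F statistic of the test, and is rough near 0 counts. The scripts were tested on simulated data. Recovery was required there only for large planted changes without grouping by replicate number. That test does not measure power for changes of the size seen here.

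Replicate numbers were taken to pair the libraries, because deviations from dose means correlated at 0.661 to 0.778 in all 9 same-number pairs, above the set limit of 0.1. The block, DESeq2 1.42.0, RLE factors, other count filters, all 9 libraries in the fit and leaving out each library were alternatives. DESeq2 with the block, and its repeats for ATG7, were added after the values were seen. Full values were given for each gene's most abundant guide and, per comparison, the E1 guide of lowest p in each direction. UBA1.4, UBA1.5, the scarce UBA1 guides, UBA7.1, UBA7.9, ATG7.4, MOCS3.9 and UBA6.7 were named after their values were seen. The members and lists were chosen with earlier results of these data known.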

Additional observations from a re-analysis of the deposited data

How the results depend on the processing

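The number of E1 guides past the threshold was 0 in all 3 comparisons and under every alternative, edgeR's replicate block and DESeq2 included. In DESeq2 with the block at 1500 against 200 µM, 22 of the 45 E1 guides got no adjusted p, MOCS3.2 among them. The number of E1 genes was 0 as well, except for 1, ATG7 at 1500 against 200 µM, in DESeq2 with the replicate block (-0.27, and -0.19 with the highest guide left out). The median log2 fold change of E1 guides at 1500 against 0 µM was 0.20 with the replicate block in edgeR, against -0.06 without it. At 1500 against 200 µM it moved to -0.11 in DESeq2 with the replicate block, against 0.07. Without the block the test rarely reached p-values under 0.05 at all, in 14 to 21 of 10337 guides per comparison, so a p that misses the threshold there says little. Directions of several sums turned. ATG7 at 1500 against 0 µM had 0.036 with the replicate block in edgeR and 0.024 with it in DESeq2, against -0.03. UBA1 at 200 against 0 µM had 0.18 with the replicate block in edgeR, 0.21 with it in DESeq2 and 0.0071 with the highest guide left out, against -0.23. With single libraries left out, the log2 fold change at 1500 against 0 µM ran from -0.55 to 1.52 for UBA1, from -0.12 to 0.75 for UBA6, from 0.09 to 0.44 for UBA7, from 0.31 to 0.53 for MOCS3 and from -0.44 to 0.54 for ATG7. At 200 against 0 µM it ran from -0.64 to 1.07 for UBA1, from -0.083 to 0.71 for UBA6, from 0.02 to 0.36 for UBA7, from 0.21 to 0.37 for MOCS3 and from -0.19 to 0.80 for ATG7. At 1500 against 200 µM it ran from -0.34 to 0.83 for UBA1, from -0.34 to 0.35 for UBA6, from -0.063 to 0.23 for UBA7, from 0.0060 to 0.22 for MOCS3 and from -0.68 to 0.17 for ATG7. The sign of MOCS3 held in these fits, but with the highest guide of each gene left out it was 0.17, 0.12 and 0.023 at 1500 against 0, 200 against 0 and 1500 against 200 µM, against 0.42, 0.29 and 0.12. By the median of its guides MOCS3 had rank 323 at 0 µM, against 181 by the sum. The rank of UBA6 ran from 351 to 793 and that of ATG7 from 557 to 1043 with single libraries at 0 µM left out, and that of UBA1 from 9 to 30. The causes of these shifts were not tested. Low counts limit what can be said of UBA1 most, since 58 of its 90 counts were under 10.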
